A study of Mus musculus with 4 samples.

Results

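Levels of 8 genes known as markers of LYVE1-type perivascular macrophages were compared between CX3CR1low and CX3CR1bright macrophages, 2 sorted subsets of adult mouse skin. The genes, Lyve1, Folr2, Cbr2, F13a1, Ednrb, Wwp1, Fxyd2 and Aqp1, were chosen by name, with earlier results of these data known. An array row annotated with its symbol alone was found for 8 of 8, among 22180 genes with such a row. Each had 1 such row, so no choice between rows was needed. All samples came from ear skin of untreated C57Bl/6 mice of genotype Cx3cr1+/gfp, in which GFP replaces the product of 1 Cx3cr1 allele, and this holds for both subsets. The labels give the age only as adult. Each sample was sorted by FACS from the digested skin of 3 to 6 pooled mice, and each subset was sampled 2 times, from 2 independent litters. No sample with both Cx3cr1 alleles intact was analysed here, and the arrays carry no information on where in the tissue a cell lay.

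Macrophages that line blood vessels in many organs share a set of transcripts named after LYVE1, a receptor for the matrix sugar hyaluronan. These cells are long-lived residents known for taking up macromolecules and for low surface MHC class II, and they are usually contrasted with CX3CR1-high, MHC class II-high macrophages that lie along nerves. Several of the 8 genes are not particular to macrophages. LYVE1 also marks lymphatic endothelium, AQP1 and EDNRB are made by blood endothelium, EDNRB by melanocytes and glia, and F13A1 by platelets and monocytes.

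The values are RMA log2 levels, so a difference of 1 is 2-fold. Array medians ranged from 3.65 to 3.68, and 75th percentiles from 5.44 to 5.52. Cx3cr1, the gene of the gate, stood at 3.63 and 3.60 on CX3CR1low replicates 1 and 2 and at 8.42 and 8.44 on CX3CR1bright replicates 1 and 2. Of 12 pan-macrophage markers 12 were tested, and their mean level was 10.1 and 10.2 on the CX3CR1low and 10.1 and 9.94 on the CX3CR1bright arrays. The comparison asks whether the marker genes differ between the subsets. It was made with limma over 13133 genes, of which 18 passed an adjusted p of 0.05 (0.137%), 8 higher (0.0609%) and 10 lower in CX3CR1bright. An exact permutation test of 2 arrays against 2 cannot go below p = 0.333 (two-sided).

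In this comparison 8 of the 8 genes had lower mean levels in CX3CR1bright cells, as had 57.5% of tested genes, by 2.03-fold (Lyve1) to 4.49-fold (Ednrb), and 0 of 8 passed the adjusted threshold, which 0.0761% of tested genes passed as lower. For 7 of 8 the subsets did not overlap, where 31.5% of tested genes were free of overlap with CX3CR1bright lower. At least 2-fold lower were 8 of 8, against 2.94% of tested genes. At an unadjusted p under 0.05 (limma) 7 of 8 were lower, against 11.8%. The median difference of the 8 was -1.17, and that of all tested genes -0.070. Because the 8 genes and the gene lists below were chosen with earlier results of these data known, these counts are descriptions, not a test. All 8 stood above the 75th percentile on all 4 arrays, so each was well above the dim range in both subsets. In bulk samples such as these, fewer cells of a type and less RNA per cell cannot be told apart.

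**Figure D1:**
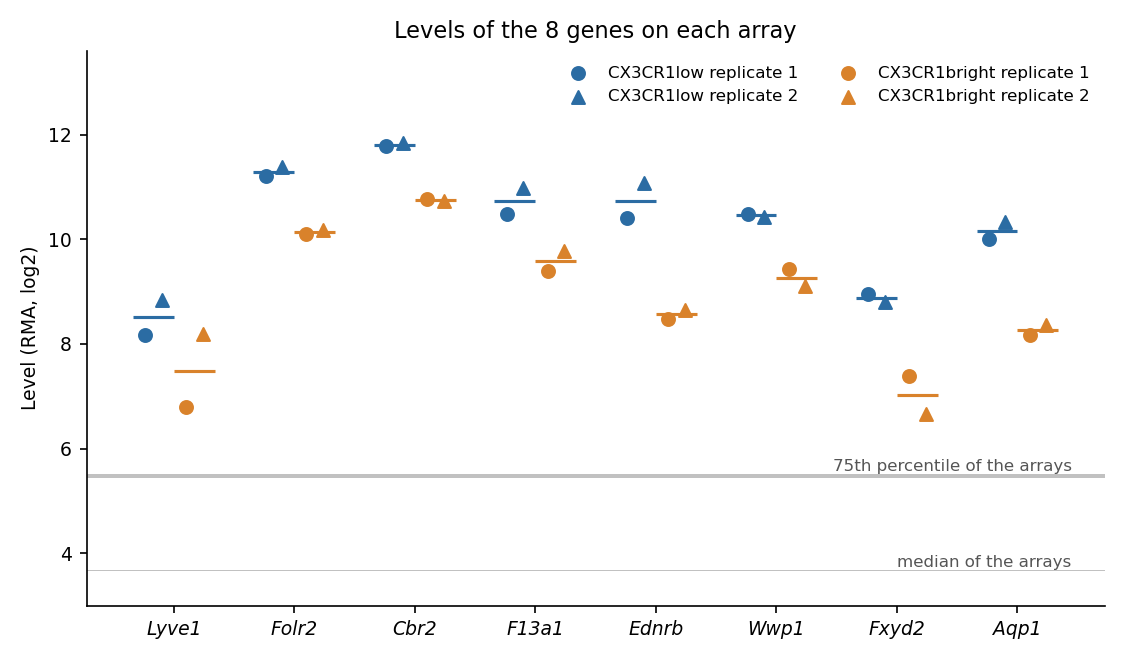
Level of each gene (RMA, log2) on each array, CX3CR1low in blue and CX3CR1bright in orange, with replicate 1 as circles, replicate 2 as triangles and the mean of a subset as a line; grey bands mark the range of array medians (3.65 to 3.68) and of 75th percentiles (5.44 to 5.52). The subsets are apart for every gene but Lyve1, whose CX3CR1bright replicate 2 lies level with CX3CR1low replicate 1 at 8.18.

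Among the surface receptors, Lyve1 (transcript cluster 17495097) was the gene whose subsets overlapped. Its level was 8.18 and 8.84 in CX3CR1low and 6.80 and 8.18 in CX3CR1bright replicates 1 and 2. CX3CR1bright replicate 2 was level with the lower of the CX3CR1low arrays, and CX3CR1bright replicate 1 lay below all others. The difference was -1.02 ± 0.50 (SE, n = 2 per subset; limma, adjusted p = 0.352), with a 95% interval from -2.30 to 0.26. A single array decided its size: it was -0.33 (limma, adjusted p = 0.614) without CX3CR1bright replicate 1 and -1.71 (limma, adjusted p = 0.142) without CX3CR1bright replicate 2. Without CX3CR1low replicate 1 it was -1.35 and without CX3CR1low replicate 2 it was -0.69.

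Folr2 (cluster 17493949) encodes a membrane-anchored receptor that takes up folate. Its level was 11.2 and 11.4 in CX3CR1low and 10.1 and 10.2 in CX3CR1bright. Both CX3CR1bright arrays lay at least 1.03 below both CX3CR1low arrays. The difference was -1.15 ± 0.19 (SE, n = 2 per subset; limma, adjusted p = 0.0913), or 2.23-fold.

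Ednrb (cluster 17309268) encodes the endothelin receptor type B, a G protein-coupled receptor for all endothelin peptides. It stood at 10.4 and 11.1 in CX3CR1low and at 8.48 and 8.65 in CX3CR1bright cells. The gap between the nearest arrays of the subsets was 1.75, the widest of the 8 genes. The difference of -2.17 ± 0.28 (SE, n = 2 per subset; limma, adjusted p = 0.0706), or 4.49-fold, was the most negative among them, and 20 of the 13133 tested genes had a more negative one.

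The membrane transport genes differed by nearly as much. Aqp1 (cluster 17458813), a water channel, stood at 10.001 and 10.324 in CX3CR1low and at 8.17 and 8.37 in CX3CR1bright cells. The arrays of a subset were 0.32 and 0.20 apart, and those of different subsets at least 1.63. The difference was -1.89 ± 0.21 (SE, n = 2 per subset; limma, adjusted p = 0.0632), 3.72-fold, and 29 tested genes had a more negative one. Fxyd2 (cluster 17516784), the gamma subunit that modulates the sodium-potassium pump, stood at 8.95 and 8.79 in CX3CR1low and at 7.39 and 6.66 in CX3CR1bright cells. The CX3CR1bright arrays differed by 0.73 from each other, but both lay at least 1.402 below the CX3CR1low arrays. The difference was -1.84 ± 0.29 (SE, n = 2 per subset; limma, adjusted p = 0.0907), 3.59-fold.

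The enzymes gave differences of just over 2-fold. Cbr2 (cluster 17273304), a carbonyl reductase, stood at 11.8 on both CX3CR1low arrays and at 10.8 and 10.7 on the CX3CR1bright arrays. Its SDs within the subsets were 0.041 and 0.033 (n = 2 each), and it differed by -1.06 ± 0.18 (SE; limma, adjusted p = 0.0930). F13a1 (cluster 17291881), the catalytic chain of coagulation factor XIII, which cross-links fibrin, stood at 10.5 and 11.0 in CX3CR1low and at 9.40 and 9.78 in CX3CR1bright cells. The nearest arrays of the subsets were 0.70 apart, and the difference was -1.15 ± 0.27 (SE, n = 2 per subset; limma, adjusted p = 0.134). Wwp1 (cluster 17423544), a ubiquitin ligase of the NEDD4 type, stood at 10.5 and 10.4 in CX3CR1low and at 9.43 and 9.10 in CX3CR1bright cells, with no overlap. Its difference was -1.19 ± 0.21 (SE, n = 2 per subset; limma, adjusted p = 0.0952).

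**Figure D2:**
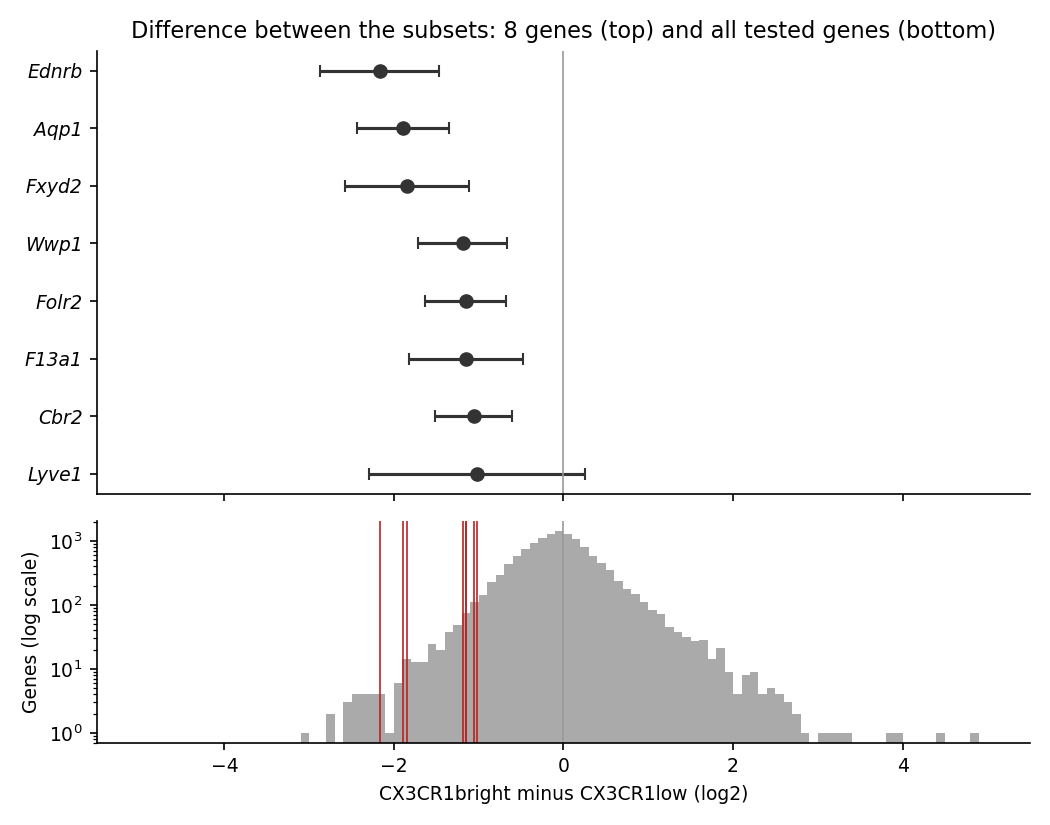
Difference of each gene, CX3CR1bright minus CX3CR1low (log2, point) with its unadjusted 95% interval from limma (bar), above a histogram of the differences of all 13133 tested genes (count on a log axis) in which red lines mark the 8 genes. The intervals of 7 genes lie below 0 and that of Lyve1 runs from -2.30 to 0.26; Ednrb, Aqp1 and Fxyd2 lie farthest left, at -2.17 to -1.84.

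By size, 3 genes (Ednrb, Aqp1 and Fxyd2) differed by 3.59-fold to 4.49-fold and 5 by 2.03-fold to 2.28-fold, but the genes were not tested against each other. The 95% interval of Fxyd2, from -2.58 to -1.11, overlapped that of Wwp1, from -1.71 to -0.67, and that of Ednrb, from -2.87 to -1.47, narrowly overlapped that of Cbr2, from -1.51 to -0.61. An overlap of separate intervals cannot decide whether 2 genes differ in size. The genes also differed in how the 2 arrays of a subset compared. In CX3CR1low, replicate 2 was above replicate 1 for 6 of 8 genes, the exceptions being Wwp1 and Fxyd2. In CX3CR1bright, replicate 2 was below replicate 1 for 3 of 8, Cbr2, Wwp1 and Fxyd2, and Lyve1 ran the other way by 1.38. Likeness between genes was measured as the Euclidean distance between mean-centred levels over the 4 arrays, where 0 is an identical pattern. The closest pair was Cbr2 and Folr2 at 0.15. Next came Cbr2 and Wwp1 at 0.26, F13a1 and Folr2 at 0.32, Folr2 and Wwp1 at 0.34 and Aqp1 and Ednrb at 0.37, and Lyve1 and Fxyd2 were the farthest apart at 1.80.

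Promoter sequence is shown for the closest pair and for Ednrb and Aqp1, the genes with the most negative differences, as the 250 bases before each start of transcription in RefSeq (GRCm38.p6), where 5 of the 8 genes had an entry, with 7 starts. Capitals mark TGCTGA, a part of the element bound by MAF factors, and GAGGAA, an ETS core of the kind bound by PU.1, on either strand. Both are factors of macrophage identity. The Aqp1 window is chr6:55336049-55336298 on the plus strand, that of Ednrb chr14:103843702-103843951 on the minus strand, and that of Cbr2 chr11:120732022-120732271 on the minus strand. Folr2 has 2 starts, with windows at chr7:101857191-101857440 on the minus strand and at chr7:101845332-101845581 on the minus strand.
Aqp1: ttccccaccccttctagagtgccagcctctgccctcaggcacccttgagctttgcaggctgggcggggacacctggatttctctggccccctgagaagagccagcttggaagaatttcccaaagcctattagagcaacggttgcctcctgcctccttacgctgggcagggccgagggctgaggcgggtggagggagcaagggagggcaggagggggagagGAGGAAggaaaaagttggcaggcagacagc
Ednrb: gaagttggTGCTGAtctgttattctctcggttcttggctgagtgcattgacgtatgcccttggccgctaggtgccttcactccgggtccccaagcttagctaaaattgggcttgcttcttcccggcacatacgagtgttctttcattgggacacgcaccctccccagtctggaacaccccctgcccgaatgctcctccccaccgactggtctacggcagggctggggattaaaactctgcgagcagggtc
Cbr2: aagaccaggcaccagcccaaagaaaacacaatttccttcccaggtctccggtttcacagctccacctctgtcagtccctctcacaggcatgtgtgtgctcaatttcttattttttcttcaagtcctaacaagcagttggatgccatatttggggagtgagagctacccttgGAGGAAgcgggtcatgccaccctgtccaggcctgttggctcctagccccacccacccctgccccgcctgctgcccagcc
Folr2, first start: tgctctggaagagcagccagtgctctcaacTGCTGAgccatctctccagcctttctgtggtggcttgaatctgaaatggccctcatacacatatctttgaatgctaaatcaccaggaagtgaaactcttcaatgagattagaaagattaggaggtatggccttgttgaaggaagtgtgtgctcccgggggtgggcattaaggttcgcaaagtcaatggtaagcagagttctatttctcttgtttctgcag
Folr2, second start: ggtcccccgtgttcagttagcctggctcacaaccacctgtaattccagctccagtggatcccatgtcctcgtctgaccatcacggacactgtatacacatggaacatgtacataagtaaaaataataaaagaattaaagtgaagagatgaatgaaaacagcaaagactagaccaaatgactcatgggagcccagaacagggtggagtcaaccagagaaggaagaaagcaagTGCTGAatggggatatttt
TGCTGA was found in the windows of Ednrb and of both Folr2 starts, 3 of the 7 starts, against 16.1% of 32851 promoters of the same length. GAGGAA was found in those of Cbr2, Aqp1 and 1 start of F13a1, 3 of 7, against 23.3%. In the windows shown none holds both, so Cbr2 and Folr2 shared no marked motif, nor did Ednrb and Aqp1. Of the other motifs searched on both strands, the AP-1 site TGANTCA was in 1 of 7 (6.75% of all promoters), the E-box CANNTG in 6 of 7 (66.2%), the GC box GGGCGG in 1 of 7 (32.7%) and the TATA box TATAAA in 0 of 7 (12.4%). Matches of the MAF, AP-1 and E-box letters can overlap one another, and a match describes the letters alone.

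Each gene was set beside its own family, to see whether relatives differed in the same way. The receptor Ednrb had the most negative difference of 7 tested genes of the endothelin system. The other 6 were 3 negative and 3 positive, with a median of 0.059, and 0 of them passed the adjusted threshold. The ligand gene Edn1 went the other way, at 3.53 and 3.70 in CX3CR1low and 4.73 and 4.75 in CX3CR1bright cells, a difference of 1.12 ± 0.19 (SE, n = 2 per subset; limma, adjusted p = 0.0919). On the CX3CR1low arrays it was close to the median, where a level can be background. Aqp1 was likewise lowest among 5 tested aquaporins. The remaining 4 had a median of 0.19, and 6 of the 11 listed were too dim to test. Aqp3, an aquaporin of keratinocytes, stood at 6.61, 6.68, 6.43 and 9.44 on CX3CR1low 1 and 2 and CX3CR1bright 1 and 2, so that 1 array alone was high.

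Fxyd2 was lowest of 7 tested FXYD and sodium pump genes, and the others had a median of 0.12. Of those, the pump beta subunit gene Atp1b1 had a negative difference too, at -1.41 ± 0.40 (SE, n = 2 per subset; limma, adjusted p = 0.171), while its paralog Atp1b3 stood at 9.15 to 9.21 on all 4 arrays. The CX3CR1bright levels of Atp1b1 were 3.27 and 4.38, the first of them below its array's median of 3.67, where a level can be background. Wwp1 was lowest of 9 tested NEDD4-type genes, with 4 of the other 8 negative and a median of 0.016. Its close paralog Wwp2 differed by -0.61 ± 0.21 and Nedd4 by 1.404 ± 0.329 (SE, n = 2 per subset; limma, adjusted p = 0.221 and 0.135). Folr2 was lowest of 9 genes of folate uptake and one-carbon metabolism. The proton-coupled folate carrier Slc46a1 differed by -0.96 ± 0.40, the mitochondrial folate enzyme Mthfd2 by 0.85 ± 0.23 and the cytosolic Shmt1 by -0.54 ± 0.18 (SE, n = 2 per subset; limma, adjusted p = 0.289, 0.161 and 0.205). Slc46a1 stood at 4.82 and 3.65 in CX3CR1bright cells, the second just below its array's median of 3.68.

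Lyve1, Cbr2 and F13a1 were not the lowest of their families. Among hyaluronan genes Lyve1 ranked 4 of 10 from the lowest. The hyaluronidase genes Hyal2 and Hyal3 differed by -1.55 ± 0.32 and -1.32 ± 0.20 and Cemip2, a cell surface hyaluronan-degrading protein, by -1.04 ± 0.26, whereas Has2, which makes hyaluronan, differed by 1.21 ± 0.20 (SE, n = 2 per subset; limma, adjusted p = 0.110, 0.0850, 0.150 and 0.0913). Among carbonyl reductases and related enzymes 6 of 7 were negative, with Akr1b8 at -1.32 ± 0.18, Dcxr at -0.87 ± 0.25 and Akr1a1 at -0.56 ± 0.20 (SE, n = 2 per subset; limma, adjusted p = 0.0789, 0.176 and 0.225). Among transglutaminase and clotting genes F13a1 ranked 3 of 15. The anticoagulant genes Thbd and Pros1 differed by -1.57 ± 0.32 and -1.29 ± 0.25 and the plasminogen activator gene Plat by 2.23 ± 0.34 (SE, n = 2 per subset; limma, adjusted p = 0.108, 0.104 and 0.0845). In these 8 families 0 of 61 tested relatives passed the adjusted threshold (limma). At an unadjusted p under 0.05 there were 13 lower and 7 higher, where 11.8% and 7.03% of all tested genes were. With the gene of interest included, the medians of 4 families changed sign when 1 array was left out, from -0.25 to 0.048 for the endothelin system, -0.16 to 0.060 for NEDD4-type genes, -0.038 to 0.14 for FXYD and sodium pump genes and -0.22 to 0.14 for aquaporins. The lowest of these came with CX3CR1bright replicate 2 left out, or CX3CR1low replicate 2 for FXYD and pump genes. The highest came with CX3CR1bright replicate 1 left out for endothelin and NEDD4-type genes, CX3CR1low replicate 1 for FXYD and pump genes and CX3CR1low replicate 2 for aquaporins.

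**Figure D3:**
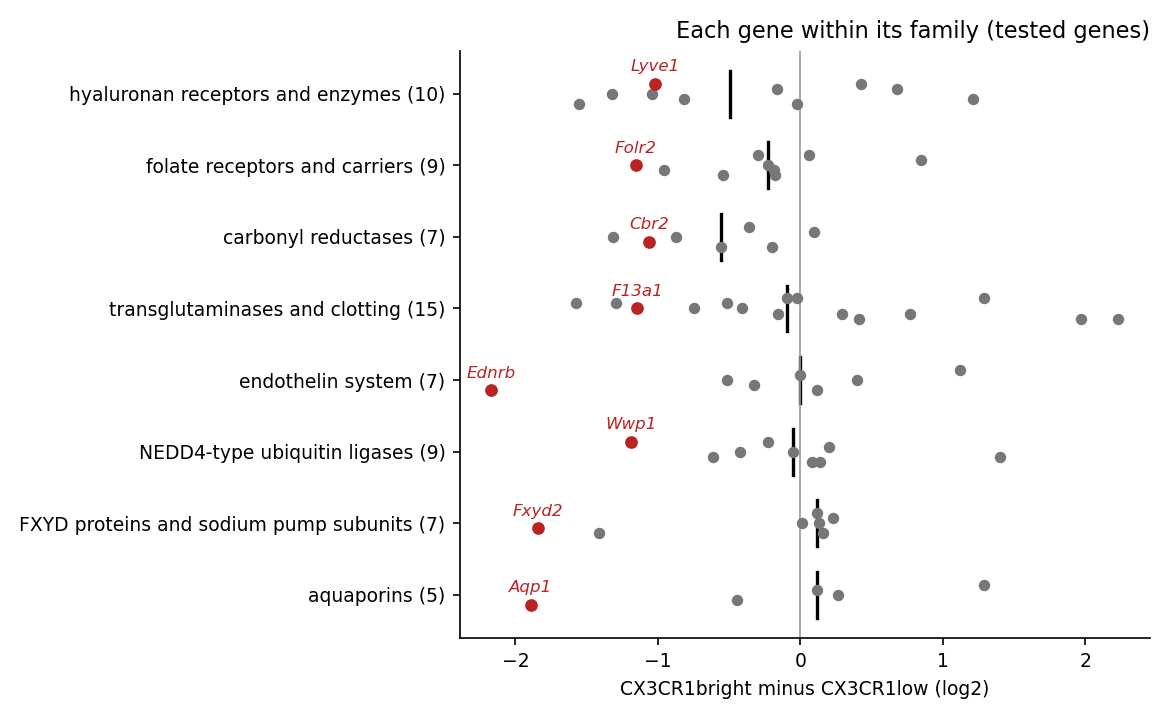
Differences, CX3CR1bright minus CX3CR1low (log2), of the tested genes of each family (number in brackets), with the gene of interest in red and named, its relatives in grey, and a black bar at the family's median; vertical scatter within a row has no meaning. Ednrb, Wwp1, Fxyd2, Aqp1 and Folr2 lie at the low end of their families, while Hyal2, Akr1b8 and Thbd lie below Lyve1, Cbr2 and F13a1.

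Other genes known from LYVE1-type macrophages were given by a list of 24. Of these 22 had a single-symbol row, 21 were tested and 19 were negative, with a median of -0.83 against -0.070 for all tested genes. The adjusted threshold was passed by 0, while 15 were lower and 1 higher at an unadjusted p under 0.05 (limma), where 11.8% and 7.03% of tested genes were. The iron exporter gene Slc40a1 stood at 7.56 and 8.48 in CX3CR1low and 5.22 and 5.93 in CX3CR1bright cells, and C4b, a complement component, at 9.27 and 9.59 against 7.10 and 6.59. C4b differed by -2.58 ± 0.26, Gas6, a bridging protein for dying cells, by -1.51 ± 0.21 and Fcna, a ficolin, by -1.44 ± 0.20 (SE, n = 2 per subset; limma, adjusted p = 0.0541, 0.0774 and 0.0794). The mannose receptor gene Mrc1, among the most used protein markers of these cells, stood at 11.4 on both CX3CR1low and at 10.8 and 11.2 on the CX3CR1bright arrays, a difference of -0.37 ± 0.21 (limma, adjusted p = 0.404, n = 2 per subset). The transcription factor gene Maf stood at 8.65 and 8.86 against 8.08 and 8.57, with a gap of 0.085 between the subsets. Timd4, often listed with Lyve1 and Folr2 as a marker of resident macrophages, went the other way, at 6.19 and 6.77 in CX3CR1low and 8.68 and 8.46 in CX3CR1bright cells, a difference of 2.09 ± 0.26 (SE, n = 2 per subset; limma, adjusted p = 0.0706). Vsig4 lay near the array medians, at 3.60 to 3.82.

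Genes of the MHC class II-high macrophage type had the opposite sign, with 11 of 11 tested members positive, a median of 0.46 and 0 past the adjusted threshold (limma; 5 higher at an unadjusted p under 0.05, against 7.03% of all tested genes). Ccr2, the receptor for monocyte-attracting chemokines, stood at 5.18 and 5.02 in CX3CR1low and 7.19 and 6.80 in CX3CR1bright cells. The integrin gene Itgax differed by 1.69 ± 0.27, Cd52 by 1.84 ± 0.53 and the cytokine gene Il1b by 0.59 ± 0.21 (SE, n = 2 per subset; limma, adjusted p = 0.0913, 0.176 and 0.226). The class II genes themselves differed by less, H2-Aa by 0.34 ± 0.25 and H2-Eb1 by 0.42 ± 0.22 (SE, n = 2 per subset; limma, adjusted p = 0.522 and 0.375). H2-Ab1 overlapped, at 12.3 and 12.0 against 12.4 and 12.3.

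Markers of other cells were read beside the 8 genes, since some of these are shared with endothelium, glia, melanocytes or platelets. For Lyve1, the lymphatic endothelial gene Prox1 stood at 2.67 to 3.10 on all 4 arrays, below every array's median, and Flt4 at 3.49 to 4.07. Of 7 lymphatic markers with a row, 5 were too dim to test. Pdpn, which other skin cells also make, stood at 10.1 and 9.83 in CX3CR1low and at 10.5 on both CX3CR1bright arrays. It differed by 0.56 ± 0.20 (SE, limma, adjusted p = 0.226, n = 2 per subset) and was higher without overlap, as were 18.9% of tested genes. For Aqp1 and Ednrb, 12 blood endothelial markers had mean levels of 3.96 and 4.11 on the CX3CR1low and 4.18 and 3.63 on the CX3CR1bright arrays, and 6 of 8 tested were negative, for a median of -0.079. Leaving out CX3CR1low replicate 1 gave -0.33, leaving out CX3CR1bright replicate 1 gave -0.17, and leaving out CX3CR1bright replicate 2 gave 0.072, with 5 of 8 positive. Cdh5, the endothelial cadherin gene, stood at 6.10 and 7.09 in CX3CR1low and at 5.71 and 4.07 in CX3CR1bright cells, whereas the claudin gene Cldn5 was higher in CX3CR1bright cells without overlap, at 3.498 and 3.890 against 4.96 and 4.16, and Pecam1 stood at 5.29 and 5.84 against 5.88 and 5.68. On the CX3CR1low arrays Cldn5 was close to the median, where a level can be background, and 18.9% of tested genes were likewise higher without overlap. The part of endothelial cells in the Aqp1 and Ednrb differences was not tested. The melanocyte gene Dct, at 3.61 to 4.24, and the glial gene Sox10, at 3.49 to 4.25, lay near the array medians on all arrays. For F13a1, the platelet gene Itga2b stood at 5.07 and 4.96 in CX3CR1low and 4.93 and 4.79 in CX3CR1bright cells. Gp9 stood at 3.44 and 3.56 against 4.21 and 4.33. The subsets did not overlap for either gene and the signs were opposite, but the nearest Itga2b arrays were only 0.036 apart. Gp9 lay below the medians of both CX3CR1low arrays, where a level can be background. Of tested genes, 31.5% were likewise lower and 18.9% higher without overlap. The subsets overlapped for the platelet gene Ppbp, with a difference of 0.11 ± 0.29 (SE, n = 2 per subset; limma, adjusted p = 0.878). The part of platelets in the F13a1 difference was not tested. For Aqp1 again, 3 erythroid markers had a row and 3 of 3 were too dim to test.

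Markers of dendritic cells, keratinocytes and fibroblasts mostly stood higher on the CX3CR1bright arrays. Of 8 tested dendritic cell markers 7 were positive, with a median of 1.67. The migration receptor gene Ccr7 differed by 2.22 ± 0.22, the growth factor receptor gene Flt3 by 2.13 ± 0.24, langerin (Cd207) by 2.24 ± 0.28 and the chemokine gene Ccl22 by 1.69 ± 0.22 (SE, n = 2 per subset; limma, adjusted p = 0.0541, 0.0632, 0.0706 and 0.0706). Of keratinocyte markers 10 of 10 were positive, with mean levels of 5.89 and 5.40 on the CX3CR1low arrays, 6.29 on CX3CR1bright replicate 1 and 8.06 on replicate 2. The basal keratin gene Krt15 stood at 4.45 and 4.03 against 6.39 and 8.59, Dsc3, a desmosomal cadherin, at 5.66 and 5.44 against 6.87 and 8.63, and Perp at 5.91 and 5.08 against 6.33 and 8.32. Of fibroblast markers 9 of 9 were positive, with a median of 1.11 and mean levels of 6.02 and 5.91 against 6.81 and 7.02. The collagen genes Col1a1, Col1a2 and Col3a1 differed by 1.33 ± 0.19, 1.11 ± 0.18 and 1.29 ± 0.26 and Pi16 by 1.22 ± 0.22 (SE, n = 2 per subset; limma, adjusted p = 0.0819, 0.0913, 0.107 and 0.0967). None of these lists had a member past the adjusted threshold (limma; 5, 3 and 7 higher at an unadjusted p under 0.05, against 7.03% of all tested genes). Without CX3CR1bright replicate 2, on which keratinocyte markers were highest, the median of these markers was 0.56 and that of the 8 genes -1.41. Without CX3CR1bright replicate 1 the medians were 2.92 and -1.24. Mast cell markers, described further below, were mostly negative, with 6 of 7 tested lower in CX3CR1bright cells. The part of dendritic cells, keratinocytes, fibroblasts and mast cells in the differences of the 8 genes was not tested. Of pan-macrophage markers 8 of 12 were negative, with a median of -0.25 (-0.15 without CX3CR1low replicate 2) and values from -0.64 to 0.54. The adjusted threshold was passed by 0, and 2 were lower at an unadjusted p under 0.05 (limma), against 11.8% of all tested genes. These were the lysosomal gene Cd68 at -0.64 ± 0.18 and the complement gene C1qc at -0.64 ± 0.19 (SE, n = 2 per subset; limma, adjusted p = 0.176 and 0.182).

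**Figure D4:**
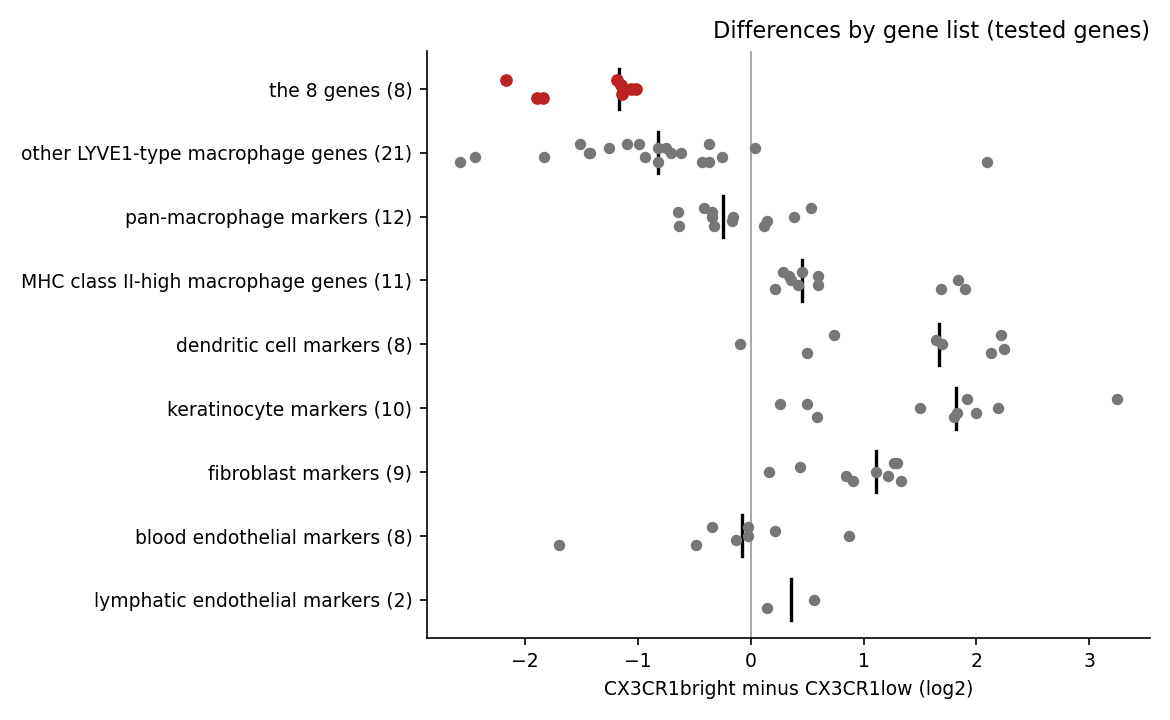
Differences, CX3CR1bright minus CX3CR1low (log2), of tested genes in 9 lists (number in brackets), with the 8 genes in red, other genes in grey and a black bar at each list's median; vertical scatter within a row has no meaning. The 8 genes lie between -2.17 and -1.02, other LYVE1-type genes below 0 apart from Timd4 at 2.09 and Ltc4s at 0.037, and dendritic cell, keratinocyte and fibroblast markers mostly above 0.

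Genes with the most similar pattern were sought among 11988 tested genes, by the same distance over the 4 arrays, as a description. Nearest to Lyve1 were Cdc23 at a distance of 0.27, Cd163, the haemoglobin scavenger receptor gene, at 0.30, and Egfr at 0.39. Cd163 stood at 9.97 and 10.5 in CX3CR1low and at 8.63 and 9.62 in CX3CR1bright cells, so that here too CX3CR1bright replicate 1 was lowest, but the subsets did not overlap. Nearest to Fxyd2 were the cysteine protease gene Ctsk at 0.15, Sorbs3 at 0.27 and the C-type lectin gene Clec10a at 0.27. Ctsk stood at 9.92 and 9.56 against 8.31 and 7.52. Nearest to Aqp1 were the cytokine gene Tslp at 0.11 and Sema4b and Mturn at 0.14 each. Tslp stood at 6.63 and 6.83 in CX3CR1low and at 4.83 and 4.96 in CX3CR1bright cells. Sema4b was also among the 3 nearest to Ednrb, at 0.36, with the orphan receptor gene Gprc5b and the elastic fibre gene Fbln5, at 0.34 and 0.35.

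Folr2, Cbr2, Wwp1 and F13a1 had closer neighbours. Those of Folr2 were Gdpd1 at 0.053, Pianp at 0.059 and Parp3 at 0.095, and those of Cbr2 were Adi1 at 0.036, Parp3 at 0.062 and Arhgap10 at 0.063. Parp3 was thus near to both genes, at 7.29 and 7.38 in CX3CR1low and 6.23 and 6.24 in CX3CR1bright cells. Wwp1 lay nearest to the mitophagy kinase gene Pink1 at 0.031, Mindy1 at 0.070 and Jund at 0.071. F13a1 lay nearest to Tppp at 0.085, A4galt at 0.095 and Ly96, the partner of TLR4 in sensing endotoxin, at 0.12.

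Whether the genes passed the threshold turned on the variance model and on the filter, neither of which can change a difference. All 112 values of the 8 genes under the 14 alternatives that refitted the data were negative. Many of these could not have reversed, because filter, variance prior, row choice and block left each difference as reported. For the genes without overlap, leaving out 1 array could not change the sign either. Scaling could have, and the smallest difference it gave was that of Lyve1, -0.88 after cyclic loess. Folr2, Cbr2, Ednrb, Wwp1, Fxyd2 and Aqp1 passed an adjusted p of 0.05 when a stricter filter removed more dim genes, where 3.96% of tested genes were called lower, and when limma's variance prior followed the level, where 1.49% were. At a looser adjusted p of 0.10 the same 6 of 8 passed, with 1.22% of tested genes called lower, and without CX3CR1bright replicate 1 Fxyd2 and Aqp1 passed at 0.05, with 0.557%. Under the first 2 settings Lyve1 and F13a1 did not pass, with adjusted p of 0.250 and 0.0594 under the stricter filter and 0.292 and 0.0572 with the level-dependent prior (limma, n = 2 per subset).

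**Figure D5:**
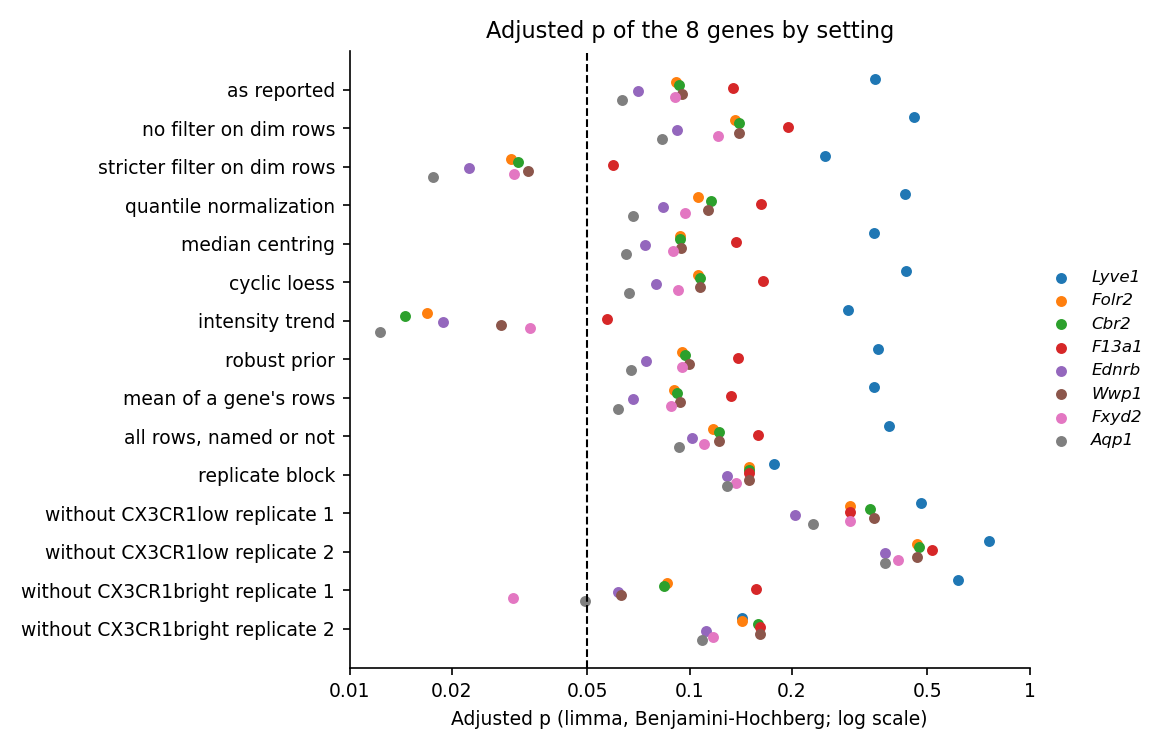
Adjusted p (limma, Benjamini-Hochberg, log axis) of each gene, 1 colour per gene, under the reported setting and 14 alternatives, with a dashed line at 0.05. Points left of the line appear with the stricter filter and the intensity trend (6 genes each) and without CX3CR1bright replicate 1 (Fxyd2 and Aqp1); Lyve1 lies at the right in nearly every row.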

How the data were processed

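Total RNA of the sorted cells was amplified and labelled for whole-transcript arrays (WT Pico), per the labels' protocols. The deposited log2 levels were made by the authors in Expression Console 1.4 by RMA, according to the submitters' processing notes. This subtracts background, equalises the arrays and summarises probes, which narrows differences near background. Array rows carry no coordinates, because their genome build is not given in the sources used here.

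Of 34390 rows, 23521 carried 1 gene symbol, 1814 several and 9055 none. Single-symbol rows were used, the brightest per gene. Genes above the array's median on at least 2 of 4 arrays were tested (13133), with limma 3.58.1 in R 4.3.3 (two-sided, Benjamini-Hochberg over all tested genes). A check on simulated data required only that planted differences were right in size on average, and set no limit on error rates. SEs are moderated. With 2 pools per subset, p-values measure the spread between pools, not mice. The 8 genes and 23 gene lists were chosen with earlier results of these data known, so their counts are descriptions. Besides the 8 genes, defining markers, 3 nearest patterns per gene and, of each list's 4 tested genes lowest in p, those under 0.05 were named, with Aqp3, Cspg4, Ppbp and Slc46a1 above it. Others, namely Atp1b3, H2-Aa, H2-Ab1, H2-Eb1, Ltc4s, Maf, Mrc1, Notch3, Slc40a1 and Vsig4, were chosen after their values were seen. The lists held 243 genes, of which 180 passed the filter, 37 were too dim and 26 lacked a single-symbol row. Alternatives changed the filter, scaling, variance prior, row choice, block, threshold and arrays.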

Additional observations from a re-analysis of the deposited data

How the results depend on the processing

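The sign of all 8 genes held in each of 14 refits (112 values), and no value was reversed. Only the scaling settings and, for Lyve1, leaving out 1 array could have reversed a sign. With a stricter filter (at least 2 arrays above the 75th percentile) and with an intensity trend, 6 genes passed: Folr2 at -1.15 (limma, adjusted p = 0.0299 and 0.0169), Cbr2 at -1.06 (0.0312 and 0.0146), Ednrb at -2.17 (0.0224 and 0.0188), Wwp1 at -1.19 (0.0335 and 0.0278), Fxyd2 at -1.84 (0.0304 and 0.0340) and Aqp1 at -1.89 (0.0176 and 0.0123). The differences are those reported, since these settings change the number of genes tested or the variance prior alone. The count of 18 genes past the threshold was 464 with the stricter filter, 308 with the trend, 33 after cyclic loess (19 higher and 14 lower, against 8 and 10), 293 at an adjusted p of 0.10 (160 of them lower, or 1.22% of tested genes, with 6 of the 8 genes among them), and 1 each without a filter, after quantile normalization, with a robust prior and over all rows; the cause was not tested. With 1 array left out, where the lone array is assumed to vary like the other subset, the count ran from 0 to 195. It was 0 (limma) without either CX3CR1low array and without CX3CR1bright replicate 2 (unadjusted p under 0.05 for 1459, 1182 and 2156 genes). A count of 195 was reached without CX3CR1bright replicate 1, where 0.557% of tested genes were called lower.

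With 1 array left out, differences ran from -1.71 to -0.33 for Lyve1, -1.24 to -1.06 for Folr2, -1.09 to -1.03 for Cbr2, -1.40 to -0.89 for F13a1, -2.50 to -1.83 for Ednrb, -1.36 to -1.02 for Wwp1, -2.21 to -1.48 for Fxyd2 and -2.05 to -1.73 for Aqp1. Fxyd2 (-2.21; limma, adjusted p = 0.0303) and Aqp1 (-1.79; limma, adjusted p = 0.0492) passed without CX3CR1bright replicate 1. The replicate numbers are not said to mark shared litters, and deviations of same-numbered arrays correlated at 0.16 across genes. With the replicate block 0 genes passed in all (2637 at an unadjusted p under 0.05), and the 8 genes had adjusted p of 0.129 to 0.177 (limma). Of the medians of the gene lists, 141 values moved by less than the spread between replicates and 20 by more. The number of arrays limits the precision.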

Other observations

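Markers of further cell types of the skin were also measured. Mast cell markers had 6 of 7 tested members negative and a median of -0.26 (-0.44 if CX3CR1low replicate 1 is left out, -0.16 if replicate 2 is), led by the tryptase gene Tpsb2 at -0.85 ± 0.23 and the chymase gene Cma1 at -0.59 ± 0.19 (SE, n = 2 per subset; limma, adjusted p = 0.159 and 0.192). T cell markers had 5 of 5 positive and a median of 0.43, or -0.098 without CX3CR1bright replicate 1, 0.96 without CX3CR1bright replicate 2 and 0.059 without CX3CR1low replicate 2, and Cd3g differed by 1.42 ± 0.48 (SE, n = 2 per subset; limma, adjusted p = 0.215). Pericyte and smooth muscle markers had 6 of 8 positive and a median of 0.068 (0.19 if CX3CR1low replicate 1 is left out, 0.24 if CX3CR1bright replicate 1 is, 0.0081 if CX3CR1bright replicate 2 is), with the filament gene Des at -0.78 ± 0.19 and the proteoglycan gene Cspg4 at 0.60 ± 0.26 (SE, n = 2 per subset; limma, adjusted p = 0.137 and 0.294). Des stood at 3.23 and 3.20 on the CX3CR1bright arrays, below their medians of 3.67 and 3.68, where a level can be background. The receptor gene Notch3 of the same list, near 0, turned negative after quantile normalization and after median centring.

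For cells that do share a gene with the 8, Schwann cell markers had 3 of 3 tested positive with a median of 0.45, melanocyte markers 2 of 4 with a median of 0.042, and platelet markers 3 of 4 with a median of 0.28. The melanocyte median was -0.25 with 0 of 4 positive without CX3CR1bright replicate 2, -0.088 without CX3CR1low replicate 1, 0.25 without CX3CR1low replicate 2 and 0.37 with 4 of 4 positive without CX3CR1bright replicate 1. The platelet median was 0.086 without CX3CR1bright replicate 2 and 0.14 without CX3CR1bright replicate 1. No member of these 6 lists passed the adjusted threshold (limma), and at an unadjusted p under 0.05 there were 3 lower and 2 higher among 7, 5, 8, 3, 4 and 4 tested members, where 11.8% and 7.03% of all tested genes were.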
